A study of Caenorhabditis elegans with 2 samples.

Results

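The UDP-glucuronosyltransferase (UGT) genes are the 67 protein-coding genes of Caenorhabditis elegans whose symbol is ugt followed by a number, out of 19973 nuclear protein-coding genes in the Ensembl annotation of WBcel235. They were examined for binding of NHR-48, a nuclear hormone receptor, by chromatin immunoprecipitation with sequencing (ChIP-seq). The animals were whole hermaphrodite L4 larvae of strain OP518, which carries the unc-119(tm4063) mutation and the integrated transgene wgIs518, and were collected 48.5 h after synchronisation by L1 starvation. The transgene expresses NHR-48 with a C-terminal GFP-FLAG tag, and the sample descriptions name an antibody against GFP. The antibody field of the same labels names nhr-48, so whether the tagged protein alone was precipitated is not settled by the labels. Both biological replicates carry the mutation and the transgene and form 1 group from 1 transgenic line, so no second condition or genotype was compared. The control entered only through the authors' peak calling, and the signal is that of all tissues together.

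UGT enzymes sit in the membrane of the endoplasmic reticulum and attach a sugar from a UDP-sugar donor to small lipophilic molecules, which makes them more soluble and easier to export. In vertebrates the sugar is usually glucuronic acid, and in nematodes glucose conjugates are also well known. The reaction follows the oxidation of drugs, plant compounds and hormones by cytochrome P450 enzymes and runs in parallel with conjugation by glutathione S-transferases. NHR-48 is related in sequence to DAF-12, the receptor for the steroid dafachronic acid, and to NHR-8, which acts in the xenobiotic response of the worm.

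The authors deposited 4 lists of regions on the ce11 build, which is the same assembly as WBcel235: 26941 regions for replicate 1, 22704 for replicate 2, 30000 for both replicates pooled, and 3361 peaks kept by the irreproducible discovery rate (IDR) procedure, which keeps regions whose ranks are reproducible between replicates. All 3361 IDR peaks came from the top 3361 places of the pooled list, and 3338 of them were nuclear. The place of a peak in the IDR list thus follows its pooled rank, and not its own rank in each replicate. Read depth is unknown, because the lists carry no counts, and each region's signal is the authors' own value on the scale of the peak caller. A gene was counted when the summit of a region lay from 1000 bp upstream to 200 bp downstream of one of its annotated 5′ ends. An annotated 5′ end in C. elegans is often the site of trans-splicing and not the start of transcription. Signals were compared only within 1 list.

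Of the 67 UGT genes, 12 had an IDR peak of NHR-48 in this window (17.9%, exact 95% Clopper-Pearson interval 9.61 to 29.2). The background was 9.00%, the share of all protein-coding genes called by the same rule. The 12 genes were ugt-20, ugt-49, ugt-64, ugt-62, ugt-54, ugt-50, ugt-47, ugt-63, ugt-13, ugt-41, ugt-65 and ugt-26, in the order of signal. The gene ugt-50 held 2 peaks and each of the others 1, which gave 13 peaks. The interval covers counting error only and treats genes as independent, although neighbouring copies may not be, and no test of the difference from other genes was made.

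The sequence under 8 of these summits is printed here. Each is 100 bases of ce11 centred on the authors' summit, read 5′ to 3′ on the strand of the gene. Capitals mark matches, on either strand, to any of 6 short sequences. These are GAGAGA, known as the GAGA motif, the E-box CACGTG, and TGATAA, which GATA factors bind. The other three are nuclear receptor sequences, namely AGTGCA, then AGGTCA, and lastly AGTTCA. The first 6 windows hold a match, and ugt-49 and ugt-62 are the strongest peaks without one. The choice favours windows with a match, which 7 of all 13 UGT windows held. For ugt-50 the window is that of the peak nearer to the gene.

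ugt-20, chrIV:6083805-6083904, minus strand: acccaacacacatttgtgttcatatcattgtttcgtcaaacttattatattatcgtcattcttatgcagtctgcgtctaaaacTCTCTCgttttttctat
ugt-64, chrV:3505907-3506006, minus strand: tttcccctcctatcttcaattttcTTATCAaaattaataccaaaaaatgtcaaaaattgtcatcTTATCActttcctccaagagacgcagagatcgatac
ugt-54, chrIV:10761491-10761590, plus strand: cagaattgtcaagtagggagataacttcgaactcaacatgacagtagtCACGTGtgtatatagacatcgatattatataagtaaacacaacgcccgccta
ugt-50, chrX:12691456-12691555, plus strand: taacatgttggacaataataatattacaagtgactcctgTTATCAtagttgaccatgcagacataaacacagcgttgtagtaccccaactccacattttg
ugt-41, chrV:7163897-7163996, minus strand: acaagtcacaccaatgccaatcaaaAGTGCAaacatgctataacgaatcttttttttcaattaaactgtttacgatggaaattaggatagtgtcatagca
ugt-65, chrIV:12420627-12420726, plus strand: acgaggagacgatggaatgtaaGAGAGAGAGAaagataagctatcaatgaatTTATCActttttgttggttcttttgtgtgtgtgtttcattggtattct
ugt-49, chrV:10371369-10371468, plus strand: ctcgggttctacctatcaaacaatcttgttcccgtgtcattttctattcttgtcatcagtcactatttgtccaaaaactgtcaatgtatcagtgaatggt
ugt-62, chrIII:4540709-4540808, minus strand: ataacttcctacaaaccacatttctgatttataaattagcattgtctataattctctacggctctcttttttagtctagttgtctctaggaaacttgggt

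Of the 13 UGT summit windows, 7 held at least 1 of these sequences and 6 held none. The share of all nuclear IDR summit windows with at least 1 of them was not computed, so this count has no background. TGATAA was in 4 of the 13 (30.8%), against 20.3% of all 3338 nuclear IDR summit windows of the same length. It lay at ugt-64, with 2 matches, at the proximal peak of ugt-50, at ugt-65 and at ugt-26. GAGAGA was in 3 windows (23.1% against 21.9%), at ugt-20, ugt-65 and ugt-26. At ugt-65 the 3 matches overlapped in a single run of GA repeats, 19 to 28 bases upstream of the summit, with a TGATAA match starting 2 bases downstream of it. These counts in 13 windows are descriptions and were not tested.

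CACGTG was in 1 window (7.69% against 7.91%), that of ugt-54, where it covered the summit itself, from 2 bases before to 3 bases after it. AGTGCA, a sequence to which DAF-12 is known to bind, was in 1 window (7.69% against 6.14%), that of ugt-41. AGGTCA was in 0 of the 13 windows, against 3.45% of all, and AGTTCA in 0, against 5.27%. A match is a description of the letters and not a measured binding site. The UGT windows were also poorer in G and C than all nuclear IDR windows (median 34% against 44%). The 6 sequences were not counted in windows of like composition.

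UGT summits lay in sequence poor in G and C. The 13 windows had a median G and C content of 34% (range 32 to 46), against a median of 44% for the 1626 other promoter IDR peaks (range 20 to 73). Of the 13, 12 were under 40%, which was true of 30.3% of the other promoter peaks. The exception was the distal peak of ugt-50. The promoter windows as a whole differed less. Their median was 32.1% for UGT genes with an IDR peak, 33.2% for those without one, 36.3% for other genes with an IDR peak and 35.0% for all protein-coding genes. The bound of 40% was chosen after the values were seen, and the differences were not tested.

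**Figure D1:**
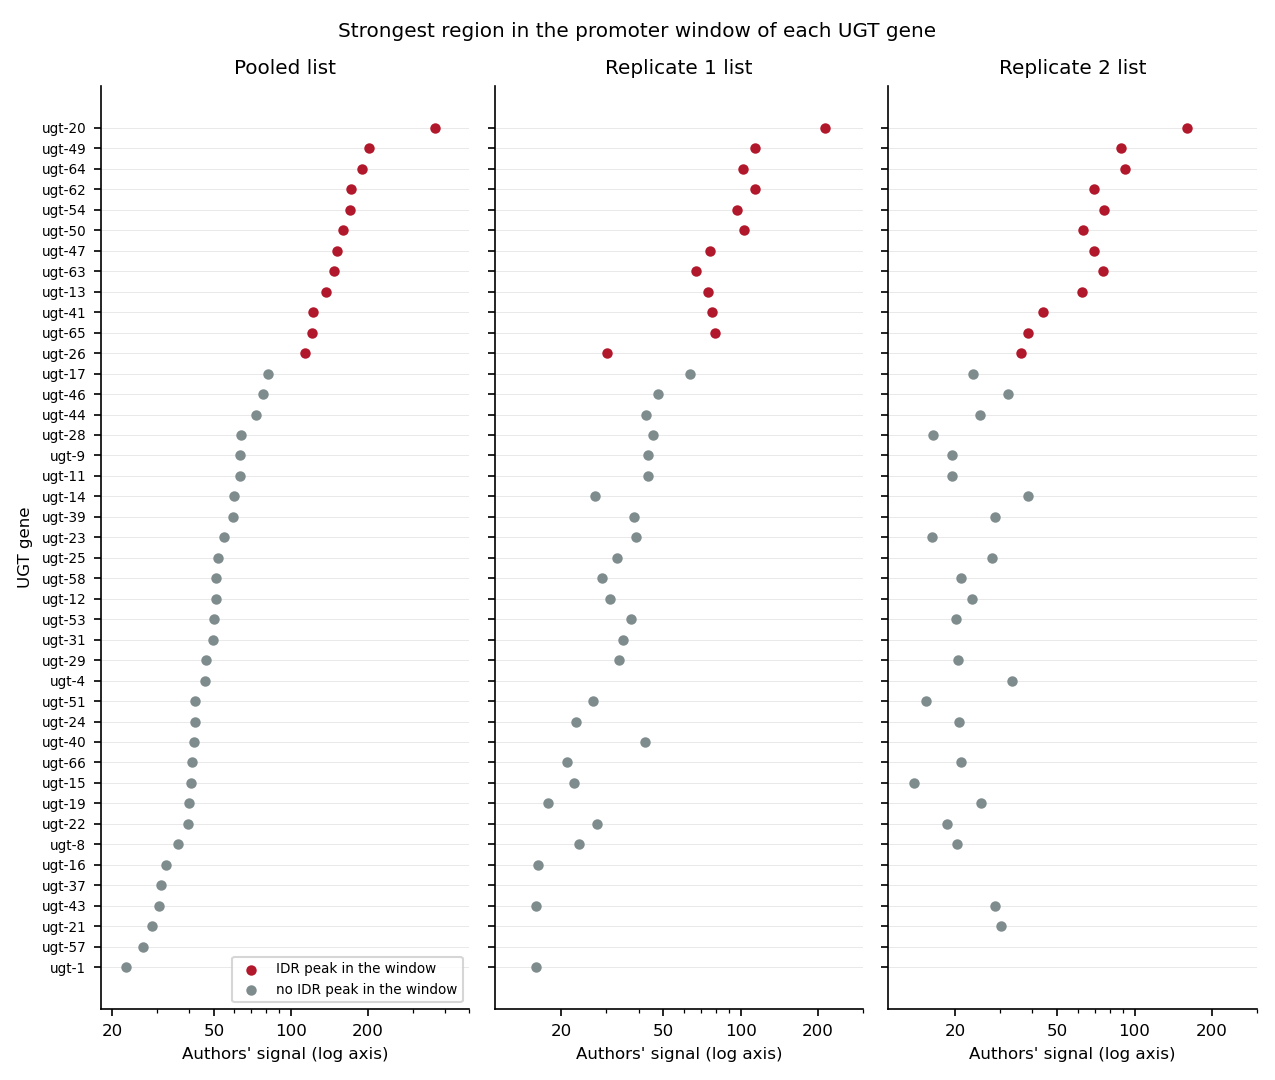
Authors' signal of the strongest region in the promoter window of each of the 42 UGT genes with a pooled region, in the pooled list (left), the replicate 1 list (middle) and the replicate 2 list (right), on log axes; red points are the 12 genes with an IDR peak and grey points the other 30, and a missing point means that no region was listed. The red genes are the 12 highest in the pooled list, because the IDR list is the top of that list. In replicate 1, ugt-26 lies among the grey genes. In replicate 2 the grey gene ugt-14 (38.5) lies above ugt-26 (36.1) and level with ugt-65 (38.5).

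The strongest UGT peak belonged to ugt-20 on chromosome IV, at 6083713 to 6083969, in intergenic sequence with its summit 255 bp upstream of the 5′ end. Its signal was 368.6 in the pooled list, 212.3 in replicate 1 and 160.3 in replicate 2. It ranked 373 among the 3361 IDR peaks, 413 in replicate 1 and 346 in replicate 2. With 257 bp it was also the only UGT peak that did not have the usual width of 476 bp. The next gene, ugt-49 on chromosome V, had a signal of 202.5 in the pooled list, so ugt-20 stood apart from the rest of the family.

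The peak of ugt-49 was far from the gene, with its summit 902 bp upstream of the 5′ end at V 10371181 to 10371656. Its signal was 113.8 in replicate 1 and 88.3 in replicate 2. A second pooled region lay in the same window, 162 bp upstream, with a signal of 33.6, which is not in the IDR list. At ugt-64 the summit (V 3505719 to 3506194, pooled signal 189.2) lay in an intron, 261 bp upstream of an internal 5′ end and 395 bp downstream of the outermost one. The gene has 4 annotated 5′ ends, and with the outermost 5′ end alone it was not called. Replicate 1 gave it 101.7 and replicate 2 gave it 91.7, and both replicate summits were 3 bp from the pooled one.

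The peaks of ugt-62, ugt-54 and ugt-50 were close to one another in signal. The peak of ugt-62 (III 4540521 to 4540996) had 171.7 in the pooled list, 113.3 in replicate 1 and 69.6 in replicate 2, with the summit 136 bp upstream. The peak of ugt-54 (IV 10761303 to 10761778) had 171.0 in the pooled list, 96.6 in replicate 1 and 75.8 in replicate 2, with the summit 157 bp upstream. The gene ugt-50 on the X chromosome had a proximal peak 67 bp upstream of its first 5′ end (X 12691268 to 12691743) and a distal one 985 bp upstream (X 12690350 to 12690825). The proximal peak had a pooled signal of 160.0 and the distal one 115.1, and the intervals did not overlap. In both replicates the proximal peak was the stronger: 103.3 against 73.4 in replicate 1 and 63.1 against 55.8 in replicate 2. The replicate 2 summit lay 82 bp from the pooled one at ugt-62 and 102 bp from it at the distal peak of ugt-50.

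Genes ugt-47, ugt-63, ugt-13 and ugt-41, all on chromosome V, followed below the median signal of the IDR list. The summit was 75 bp upstream of ugt-47 (10098434 to 10098909, pooled signal 151.5), 98 bp upstream of ugt-63 (5110632 to 5111107, 147.7) and 116 bp upstream of ugt-13 (4908530 to 4909005, 136.9). These 3 summits agreed within 3 bp between the pooled list and replicate 1. In replicate 2 those of ugt-47 and ugt-63 also did, while that of ugt-13 lay 38 bp away. At ugt-41 the summit lay 352 bp upstream (7163709 to 7164184, pooled signal 121.6), and this was the only UGT peak shared with another gene. It also fell 563 bp upstream of srh-83, a chemoreceptor family gene transcribed in the other direction. Thus 1 of the 13 UGT peaks (7.69%, exact interval 0.195 to 36.0) lay in the windows of 2 or more genes, against 353 of all 1639 promoter IDR peaks (21.5%).

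The peaks of ugt-65 and ugt-26, with the distal one of ugt-50, had the lowest signals of the 13. At ugt-65 (IV 12420439 to 12420914) the summit was 6 bp upstream of the first 5′ end. Its signal was 120.6 in the pooled list, 79.6 in replicate 1 and 38.5 in replicate 2. At ugt-26 (I 4720975 to 4721450) the summit was 7 bp downstream of the second of 2 annotated 5′ ends, in a coding exon. Its signal was 114.1 in the pooled list, with 30.2 in replicate 1 and 36.1 in replicate 2. The overlapping region of replicate 1 had its summit 143 bp away from the pooled one.

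**Figure D2:**
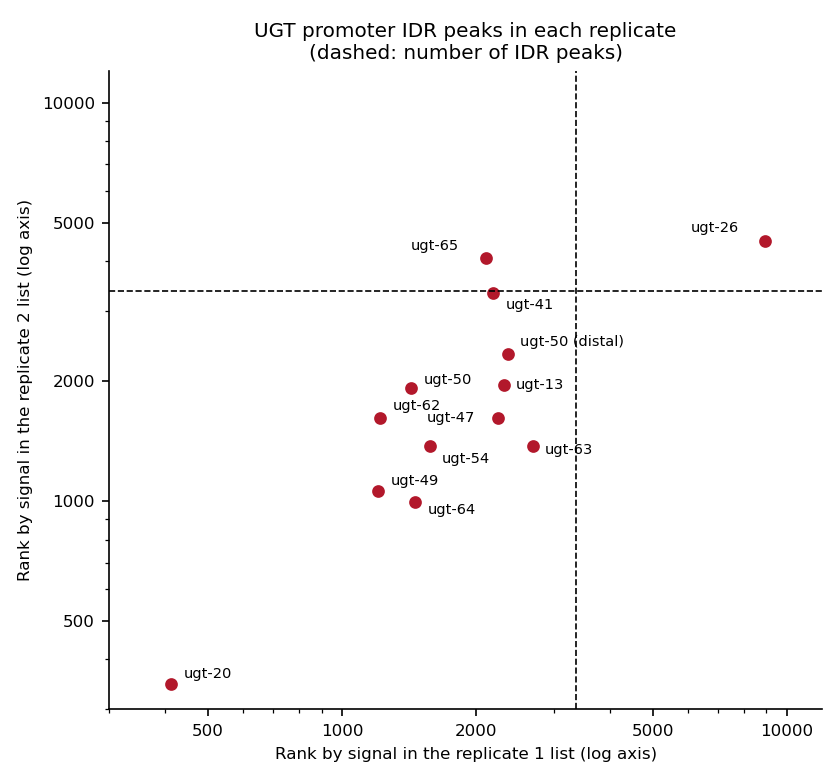
Rank by signal of the overlapping region in the replicate 1 list (x axis) and in the replicate 2 list (y axis), both on log axes, for the 13 UGT promoter IDR peaks; dashed lines mark rank 3361, the number of IDR peaks. In the lower left part are 11 peaks with a rank inside the first 3361 of both lists, while ugt-65 is outside for replicate 2 and ugt-26 for both.

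Both replicates held a region at each of the 13 UGT peaks, but not always a strong one. When each replicate list was reduced to its 3361 regions of highest signal, 11 of the 13 UGT peaks were overlapped in both (84.6%, exact interval 54.6 to 98.1), against 79.3% of all nuclear IDR peaks. The peak of ugt-65 ranked 2104 in replicate 1 and 4078 in replicate 2. The peak of ugt-26 ranked 8954 in replicate 1 and 4507 in replicate 2, and was thus 1 of 39 nuclear IDR peaks (1.17%) with no such region in either replicate. Counted by the top-ranked regions of a single replicate, 12 UGT genes were called in replicate 1 (17.9% against a background of 8.70%) and 10 in replicate 2 (14.9% against 9.05%). Replicate 1 gained ugt-17 and lost ugt-26, and replicate 2 lost ugt-26 and ugt-65. Both replicates together called 10 UGT genes (14.9% against 7.13%). The peaks of both replicates entered the IDR list, so this overlap is not independent of it.

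Most UGT summits were just upstream of the annotated 5′ end. Of the 13, 10 lay within 400 bp upstream (76.9%), as did 995 of the 1626 other promoter peaks (61.2%). The median position was 136 bp upstream for UGT peaks and 239.5 bp upstream for the others. None of the UGT summits was within 500 bp of a tRNA gene, the nearest being 2679 bp away at ugt-65, while 61 of all 1639 promoter peaks (3.72%) were. By class, 11 of the summits were intergenic, that of ugt-64 was intronic and that of ugt-26 was in a coding exon. The signal of UGT peaks had a median of 151.5 (range 114.1 to 368.6), against 153.5 for other promoter IDR peaks (95.4 to 2955.3), and 6 of the 13 were above the median of the whole IDR list.

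**Figure D3:**
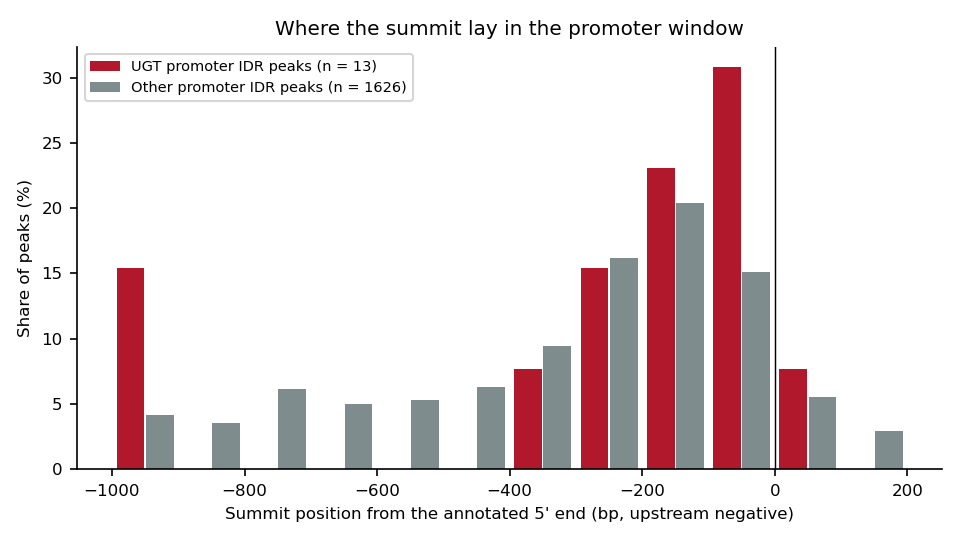
Share of peaks (y axis, percent) by the position of the summit from the annotated 5′ end in steps of 100 bp (x axis, upstream negative), for the 13 UGT promoter IDR peaks (red) and the 1626 other promoter IDR peaks (grey). The tallest bin of each set lies within 200 bp upstream, and 2 UGT summits sit in the farthest bin, those of ugt-49 and the distal peak of ugt-50.

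Weaker regions were common at the other UGT genes. In the pooled list 42 of 67 UGT genes had a summit in the window (62.7%, exact interval 50 to 74.2), against a background of 39.5%. In replicate 1 there were 40 (59.7% against 37.6%), in replicate 2 there were 37 (55.2% against 33.8%), and 34 had a summit in both (50.7% against 26.2%). Of the 30 genes with a pooled region and no IDR peak, 22 had a region in both replicate lists too. The matching share of other genes was not computed. The pooled list was made from both replicates, so this overlap is not separate support. These lists include background by design, so such regions are not calls of binding. No region of any list lay in the window of 22 UGT genes (32.8%, exact interval 21.8 to 45.4), against 52.4% of all genes. Among UGT genes with a pooled region and no IDR peak, the strongest region had a median signal of 46.4, and for other genes of this kind 39.4.

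Of the 10 strongest genes outside the IDR list, ugt-17 came first. It had a signal of 81.6 in the pooled list, 63.5 in replicate 1 and 23.4 in replicate 2, where it ranked 9414, and its region was shared with the window of C08B6.2. The gene ugt-46 followed with 78.1 in the pooled list, 47.5 in replicate 1 and 32.1 in replicate 2, and ugt-44 with 72.8, 42.9 and 25.0 in the same lists. The lowest signal in the IDR list was 95.4, so the family had a gap there, between ugt-26 above it and ugt-17 below it. The other 7 genes were ugt-28 (63.6), ugt-9 and ugt-11 (63 each, at 1 region), ugt-14 (59.7), ugt-39 (59.2), ugt-23 (54.9) and ugt-25 (52.0), all as pooled signals. The region of ugt-14 ranked 10884 in replicate 1 and 4070 in replicate 2, there just ahead of that of ugt-65. The gene ugt-22, which has been linked in C. elegans to the response to the drug albendazole, had a pooled region of signal 39.7 and no IDR peak.

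Most UGT genes lay in gene clusters. With gene bodies at most 10 kb apart, 37 UGT genes formed 11 clusters and 30 stood alone. The largest cluster held 8 genes on chromosome V (4887165 to 4911399), followed by 6 genes on V (7139475 to 7169281), 4 on I (4721131 to 4735276), 4 on V (12790676 to 12800271), 3 on V (12820260 to 12830114) and 6 pairs. In 20 of the 26 neighbouring pairs both genes ran in the same direction. Chromosome V carried 42 of the 67 genes, and 6 of these had an IDR peak (14.3% against 8.11% of all genes on V), as did 6 of the 25 on other chromosomes (24.0% against 9.30%).

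**Figure D4:**
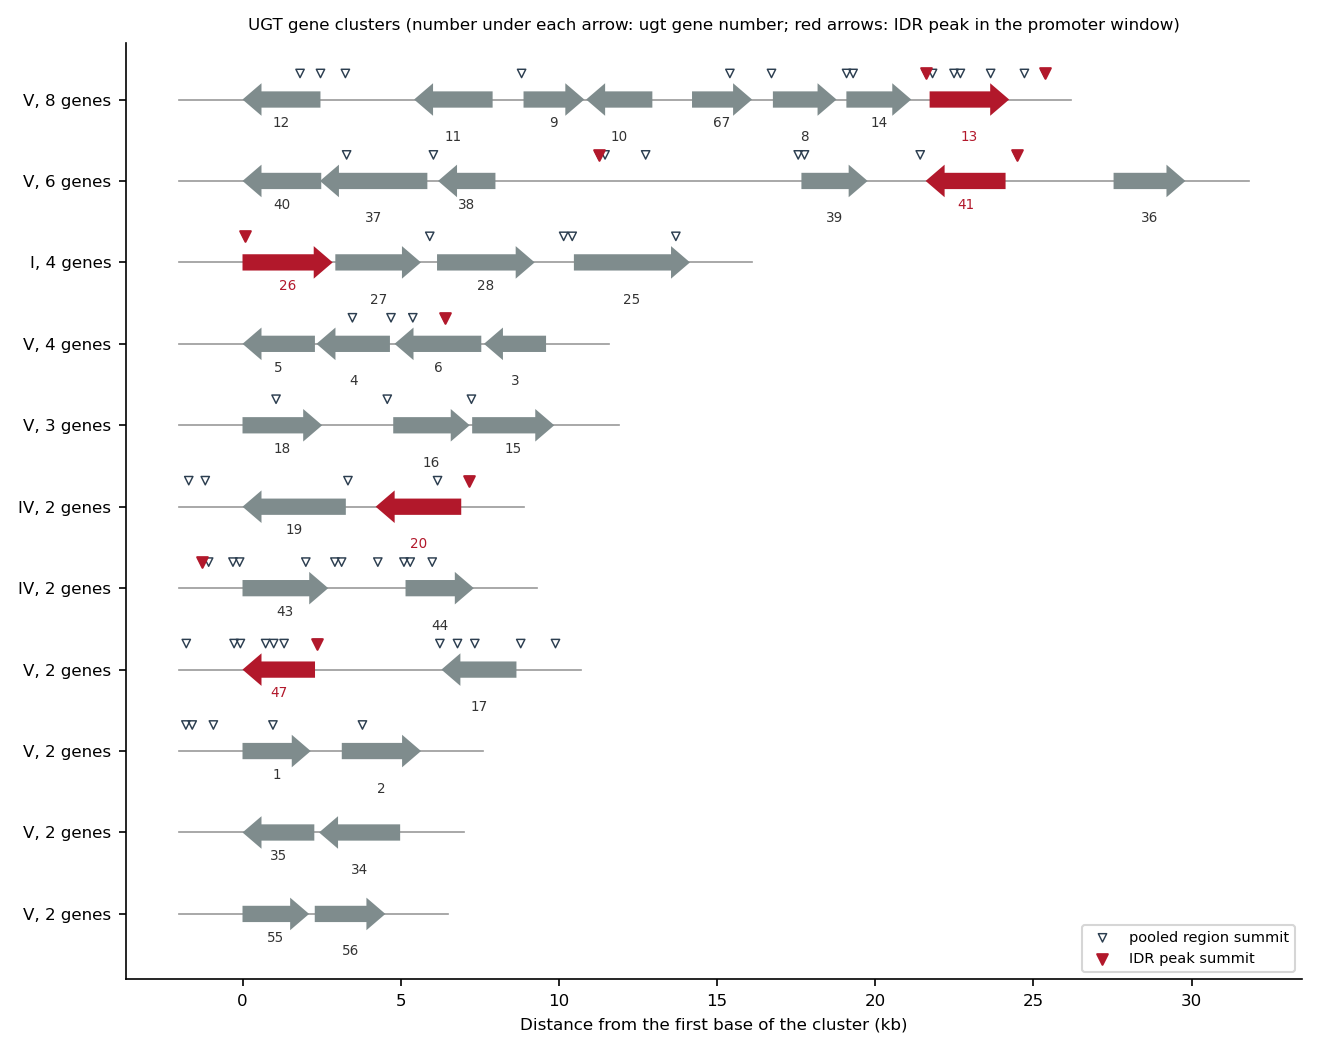
The 11 UGT gene clusters, each on its own line, with the distance from the first base of the cluster in kb on the x axis; arrows are gene bodies pointing in the direction of transcription, red where the promoter window held an IDR peak, with the number of the ugt gene below, filled triangles are IDR summits and open triangles pooled summits. At most 1 arrow per cluster is red, in 5 of the 11 clusters.

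No cluster had more than 1 gene with an IDR peak. In clusters 5 of 37 genes had one (13.5%, exact interval 4.54 to 28.8), and 7 of the 30 single genes did (23.3%, 9.93 to 42.3). The intervals overlap and the difference was not tested. Pooled regions were at 23 of the 37 clustered genes (62.2%) and at 19 of the 30 single ones (63.3%). In the cluster on I, which runs ugt-26, ugt-27, ugt-28 and ugt-25 in 1 direction, the peak was at the first gene, ugt-26. Its neighbour ugt-27 had no region in any list, and ugt-28 and ugt-25 had pooled regions but no IDR peak.

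In the pair of ugt-19 and ugt-20 on IV the peak was again at the gene that is first in the direction of transcription, ugt-20, with 368.6 in the pooled list against 39.9 at ugt-19. In the pair of ugt-47 and ugt-17 it was at the second gene, ugt-47, with 151.5 against 81.6. In the cluster of 8 on V the peak was at ugt-13, the last of 4 genes running in 1 direction, and ugt-12, ugt-11, ugt-9, ugt-8 and ugt-14 had pooled regions but no IDR peak. Their signals ran from 36.1 at ugt-8 to 63 at ugt-9 and ugt-11, while ugt-10 and ugt-67 had no region in any list. In the cluster of 6 on V the peak was at ugt-41, ugt-39, ugt-40 and ugt-37 had pooled regions, and ugt-38 and ugt-36 had none. That cluster also holds 5 other protein-coding genes, among them the fatty acid desaturase gene fat-7.

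Of 58 pooled regions in UGT windows, 11 also lay in the window of another protein-coding gene (19.0%), against 13.7% of all 10473 pooled promoter regions, and the difference was not tested. Of the 11, 1 lay in the windows of 2 UGT genes. It was the region at V 4895749 to 4896224, with its summit 61 bp upstream of ugt-9 and 916 bp upstream of ugt-11, which are divergent neighbours. Its signal was 63 in the pooled list, 43.4 in replicate 1 and 19.5 in replicate 2. No IDR peak lay in the windows of 2 UGT genes.

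Copies of a gene can lose reads that map to several places, and how such reads were treated is not given in the sources used here. In 47 of the 67 UGT promoter windows (70.1%, against 76.2% of all genes), none of the 50-base sequences occurred anywhere else in the genome. More than 10% of them did in 6 windows (8.96% against 10.4%), those of ugt-64, ugt-3, ugt-10, ugt-30, ugt-48 and ugt-67. The repeats were measured in the window of the outermost 5′ end of each gene. Apart from ugt-64, these 5 genes had no region in any list. The share without a region among all genes with such windows was not computed. The peak of ugt-64 lay 395 bp downstream of its outermost 5′ end, and thus outside the window measured here. Of the 22 UGT windows without a region, the other 17 had at most 5.12% of such sequence. The 13 IDR peak intervals at UGT genes held 0% of it.

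Other genes of small-molecule metabolism gave a mixed picture beside the UGT genes (17.9%) and all protein-coding genes (9.00%). Glutathione S-transferase genes had IDR peaks in 7 of 44 cases (15.9%, exact interval 6.64 to 30.1), the strongest at gst-7 (214.7), gst-27 (208.3), gst-42 (200.3) and gst-20 (160.6). Cytochrome P450 genes had them in 6 of 74 (8.11%, 3.03 to 16.8), led by cyp-37B1 (208.4), by cyp-33C6 and cyp-33C7, which shared 1 peak (123.0), and by cyp-13A2 (122.8). ABC transporter genes, taken as all pgp, mrp, haf, wht and abt genes, had them in 7 of 42 (16.7%, 6.97 to 31.4). They were led by mrp-5 (288.4), haf-3 (235.8), wht-7 (180.6) and mrp-3 (145.2). All these intervals overlap with that of the UGT genes (9.61 to 29.2), and no difference between the families was tested.

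Genes for the making, conversion and transport of UDP-sugars had an IDR peak in 0 of 6 cases (exact upper bound 45.9%). The share of all protein-coding genes, 9.00%, lies below that bound. They were sqv-4, a UDP-glucose dehydrogenase gene, sqv-1, sqv-7, a nucleotide-sugar transporter gene, gale-1, pgm-1 and D1005.2. A 7th listed gene, K08E3.5, matched no symbol in the annotation and was not analysed here. Of the 6 genes, pgm-1 (53.6) and gale-1 (31.1) had pooled regions and the others none. The sulfotransferase gene ssu-1 had no region. Among 18 genes for regulators of xenobiotic and stress responses, 12 had an IDR peak (66.7%, exact interval 41 to 86.7), against 9.00% of all genes. They were led by nhr-48 itself (1022.7), the coactivator gene cbp-1 (758.7), wdr-23, which encodes a repressor of SKN-1 (299.0), and skn-1 (227.4). The listed regulators without an IDR peak were daf-12, mdt-15, nhr-86, ahr-1, cky-1 and nhr-176. Of these, daf-12 (61.2), mdt-15 (40.2) and nhr-86 (37.5) had pooled regions and the others none. At nhr-48, the tagged copy and the native locus cannot be told apart. The regulators were picked by name with earlier results of these data known, and nhr-48 itself is counted among them. Their share and its interval therefore describe this list alone, and the share was not tested.

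**Figure D5:**
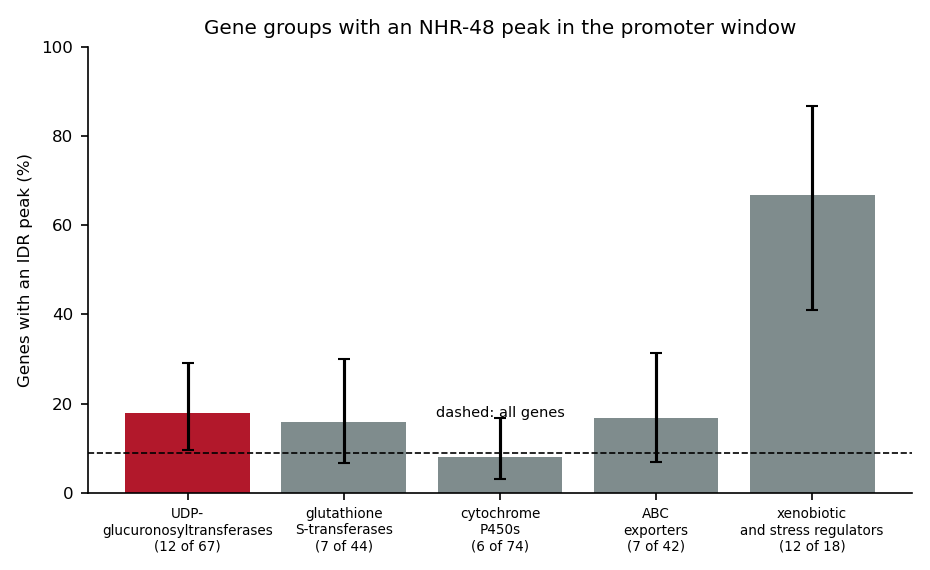
Share of genes with an IDR peak in the promoter window (y axis, percent) for UGT genes (red) and 4 other gene groups (grey), with exact 95% intervals as error bars; the dashed line is the share of all protein-coding genes, 9.00%. The interval of the UGT genes, 9.61 to 29.2, overlaps those of the glutathione S-transferases, cytochrome P450s and ABC exporters, and the regulators are at 66.7%. The regulators were picked by name with earlier results of these data known, so their bar describes that list alone.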

How the data were processed

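ChIP-seq of tagged NHR-48 was analysed from 4 deposited narrowPeak lists on ce11. Per the deposited file listings, the replicate and pooled lists were called against 1 control file and hold peaks with background, and the optimal IDR list was derived from them. The aligner, caller, versions and IDR threshold are not given in the sources used here. As ranking value, the deposited signal was used as it stands, with the authors' summit position. The deposited q values were not used. The ce10 lists were not used here.

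Regions were ranked by signal within a list, and summits (start plus the 10th column) were assigned to windows around every 5′ end of protein-coding transcripts in Ensembl release 115. The chromosome lengths of the ce11 lists were checked against the reference genome, and 0 regions ran beyond an end. Overlap with replicate regions needed 1 bp, and the overlapping region of highest signal was taken. Motifs were searched on both strands in 100 bp, and repeated 50-base sequences over the whole genome, in the RefSeq genome sequence of WBcel235. Depth is unknown, so the number of regions limits the precision. With 1 group of 2 replicates no test between conditions exists. The members and lists were chosen with earlier results of these data known, and the 6 motifs with them. All UGT genes with an IDR peak were named, with the 10 strongest others, cluster members and up to 4 genes per comparison list; ugt-22, fat-7 and the genes beyond this rule were named after their values were seen. On 200 simulated summits, 100 of 100 placed inside a window and 0 of 100 placed outside it were called. Software was matplotlib 3.10.9, scipy 1.17.1, pandas 2.3.3 and numpy 2.4.6 under Python 3.11.15.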

Additional observations from a re-analysis of the deposited data

How the results depend on the processing

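The count of 12 UGT genes with an IDR peak became 14 when the window ran from 2000 bp before to 500 bp after a 5′ end (20.9% of UGT genes against 12.3% of all genes), which added ugt-4 and ugt-43. It became 11 with 500 bp before to 100 bp after (16.4% against 6.67%), without ugt-49, and 11 with the outermost 5′ end alone (16.4% against 8.22%), without ugt-64. It was 12 (17.9%) with any overlap (against 9.92%) and with 1 gene per peak (against 7.29%). In a setting added after the data were seen, with peaks over 500 bp from tRNA genes, it was also 12 (against 8.67%). Among IDR peaks above the median signal it was 6 (8.96% against 4.61%), because fewer peaks were counted. Without replicate 1 or without replicate 2 it ran from 10 to 12, and with top-ranked regions in both replicates, also added afterwards, it was 10. The count of 42 genes with a pooled region ran from 37 to 45 over 7 alternatives, and the share of all genes moved with it. It was 37 with the narrower window (55.2% against 29.4% of all genes) and without replicate 1 (55.2% against 33.8%). With the wider window it was 45 (67.2% against 50.5%). The distinct IDR peaks numbered 13 with overlapping intervals merged, 15 with the wider and 11 with the narrower window, and 37 genes lay in clusters at 5, 10 and 20 kb. No paired analysis was possible because there is 1 group. Sequencing depth is unknown, so a gene with no listed region may still have signal below what these lists show.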

Other observations

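Peaks also lay near UGT genes outside their own promoter windows. Of the 55 UGT genes with no IDR summit in the window, 14 had one within 5000 bp of a 5′ end (25.5%). The share was 17.7% of all 18175 such protein-coding genes, and the difference was not tested. Several of the 14 genes counted the same peak. For ugt-27, ugt-19 and ugt-36 it was the promoter peak of ugt-26, ugt-20 and ugt-41 in turn, already counted above. For ugt-8 and ugt-14 it was that of ugt-13. The genes ugt-5, ugt-4, ugt-6 and ugt-3 shared a single peak, described below. An intergenic IDR peak lay at IV 10463074 to 10463549 with a signal of 269.8 and rank 678. Its summit was 1276 bp upstream of ugt-43, the first gene of the pair of ugt-43 and ugt-44, and in the promoter window of no gene. Within the cluster of ugt-5, ugt-4, ugt-6 and ugt-3 on chromosome V, an IDR peak at 12796832 to 12797307 (signal 162.9, rank 1566) had its summit in a coding exon of ugt-6, 1041 bp downstream of its 5′ end and 1734 bp upstream of ugt-4. It was the only IDR summit inside the body of a UGT gene that had none in its promoter window. At 4 of the 14 genes the nearby IDR peak lay in the promoter windows of genes outside the family alone. These were ugt-58 at a peak of tag-124 and E02H1.1 (128.1), ugt-66 at a peak of rpn-2 and C23G10.7 (96.0), ugt-24 at a peak of C49A9.10 (159.0), and ugt-38 at a peak of F10D2.8 (132.8).

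The 5-base sequence TGTCA, noticed in the summit windows and counted afterwards on both strands, was in 7 of the 13 UGT summit windows (53.8%), against 21.5% of all 3338 nuclear IDR windows. Among windows with under 40% G and C it was in 6 of 12 UGT windows (50%), against 26.8% of 1084 nuclear IDR windows. At least 2 copies were in 4 UGT windows (30.8%), those of ugt-49 (3 copies), ugt-64, ugt-54 and the distal peak of ugt-50 (2 copies each), against 3.51% of all. It was chosen from these windows, so the count is a description and was not tested.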
